A study of Mus musculus with 6 samples.

Results

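The miR-148 and miR-152 family comprises the guide strands miR-148a, miR-148b and miR-152, and it was followed here in bone marrow-derived macrophages with and without the microRNA-processing enzyme Dicer. Its members were taken by name from the table of threshold cycles (Ct, the PCR cycle at which the signal of an assay crosses a set level), which gave 3 of 596 miRNA assays. MicroRNAs were measured by TaqMan RT-PCR in cells of 3 male mice per group, aged 6 to 8 weeks. The control mice were LysM-Cre/Dicerwt/wt/Apoe-/- (WT) and the others LysM-Cre/Dicerflox/flox/Apoe-/- (KO), so both groups lacked Apoe and LysM-Cre, which drives recombination in myeloid cells, was present in both. Bone marrow of the femora was cultured for 7 days with L929-conditioned medium, a source of macrophage colony-stimulating factor. The Dicer transcript was not measured here, so the deletion was not checked at the targeted gene, and cells that had kept Dicer cannot be told apart from miRNA left in cells that had lost it.

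A miRNA is transcribed as part of a long precursor that is trimmed to a hairpin, and Dicer then cuts off the loop of the hairpin and leaves a short duplex. One strand of the duplex, the guide, is kept by an Argonaute protein and pairs with messenger RNAs mainly through its seed, the stretch from base 2 to base 8. The miR-148 and miR-152 family is known for repressing the DNA methyltransferase DNMT1 and, in dendritic cells, the kinase subunit CaMKII alpha, through which it dampens responses to Toll-like receptor ligands. In liver, miR-148a is known as a repressor of the LDL receptor and of the cholesterol exporter ABCA1.

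The mature sequences are shown because the members differ by few bases and because the seed defines the family. They are RefSeq sequences, 5′ to 3′, with the seed in capitals, and all 3 members matched an entry.
miR-148a: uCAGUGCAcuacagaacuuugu
miR-148b: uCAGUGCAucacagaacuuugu
miR-152: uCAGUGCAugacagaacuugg
The seed was the same in all 3, and among 1674 distinct mouse mature sequences of the RefSeq table these 3 were the ones with CAGUGCA at bases 2 to 8. Counted from the 5′ end, miR-148b differed from miR-148a at 2 of 22 bases (C9U and U10C). miR-152, which is 21 bases long, differed from miR-148b at 2 of the 21 bases compared (C10G and U20G) and from miR-148a at 3 (C9U, U10G and U20G). Whether an assay also detects another member was not tested.

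The precursor hairpins are shown because they are the molecules that Dicer cuts. Both mature strands are in capitals, with the loop side between them in lower case, and the guide is the second run of capitals.
miR-148a hairpin: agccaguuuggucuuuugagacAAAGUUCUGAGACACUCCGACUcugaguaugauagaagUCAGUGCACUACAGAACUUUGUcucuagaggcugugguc
miR-148b hairpin: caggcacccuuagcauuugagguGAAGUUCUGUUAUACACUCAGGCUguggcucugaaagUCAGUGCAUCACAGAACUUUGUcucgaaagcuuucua
miR-152 hairpin: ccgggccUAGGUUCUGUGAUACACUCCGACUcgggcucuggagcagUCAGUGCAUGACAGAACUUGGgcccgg
All 3 guides come from the arm after the loop, so that the cut by Dicer sets the first base of the guide and with it the seed. The hairpins measured 99, 97 and 73 bases, with 16, 13 and 15 bases between the mature strands. In mouse build GRCm38.p6, Mir148a lies on the minus strand at chr6:51269812-51269910, within the span of the predicted gene Gm38821. Mir148b lies on the plus strand at chr15:103285125-103285221, within Copz1, and Mir152 on the plus strand at chr11:96850393-96850465, within Copz2. Copz1 and Copz2 encode paralogous subunits of the COPI vesicle coat, and both lie on the same strand as the hairpin they hold. The annotation used gives gene spans and no exons. The other strands of the 3 hairpins were not analysed here.

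In the whole table, 307 to 309 miRNA assays were below the ceiling of Ct 35 in the WT samples and 219 to 290 in the KO samples. The miRNA assays stand in 2 blocks of rows, each with its own 5 endogenous small RNA controls (U6, U87, Y1, snoRNA135 and snoRNA202). The family lies in the first block, whose mean control Ct was 21.1, 20.6 and 19.1 in WT replicates 1 to 3 against 22.8, 20.3 and 19.3 in KO replicates 1 to 3. The mean control Ct differed between the groups by less than the spread between samples (20.2 ± 1.02 in WT and 20.8 ± 1.82 in KO, SD, n = 3 each; exact permutation p = 0.8, two-sided), and KO replicate 1 had the latest. All 6 of the macrophage and myeloid marker miRNAs were below the ceiling in every sample, and their summed level relative to the controls ranged from 28.3 to 52.6 in WT and from 7.96 to 14.4 in KO. Since these markers are themselves made by Dicer, they check the cell type in WT alone.

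All 3 members were less abundant in KO than in WT macrophages. Relative to the controls, miR-152 fell 6.85-fold, miR-148b 6.64-fold and miR-148a 3.13-fold, each past an adjusted p of 0.05 in limma. An exact permutation test gave p = 0.1 (two-sided) for each member, the smallest that 3 against 3 samples allow. The family count of 3 of 3 stands beside 105 of 282 tested assays (37.2%) that were lower by the same rule. The members were below the ceiling in all 6 samples, and when the test was limited to such assays 114 of 201 were lower. Each member also had all KO samples below all WT samples, which held for 169 of the 282 (59.9%), so this separation was common in the table. In the 3 pairs of samples with the same replicate number each member was lower in KO every time, as were 204 of the 282 assays (72.3%). In bulk RNA, fewer cells that make a miRNA and less of it per cell cannot be told apart.

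miR-152, encoded within Copz2, crossed the threshold at Ct 25.0, 24.8 and 22.9 in WT replicates 1 to 3, against Ct 30.6, 26.7 and 25.4 in KO replicates 1 to 3. Its log2 relative abundance, the mean Ct of the 5 controls minus the Ct of the assay in the same sample, stood at -3.96, -4.21 and -3.84 in WT against -7.79, -6.47 and -6.09 in KO. The WT samples lay close together (SD 0.19), while the KO samples spread over a wider range (SD 0.89), with KO replicate 1 lowest. The log2 difference was -2.78 ± 0.61 (SE, n = 3 per group; limma, adjusted p = 0.0312), and its 95% interval ran from 2.53-fold to 18.6-fold lower.

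miR-148b, encoded within Copz1, crossed it at Ct 26.8, 26.6 and 25.2 in WT against 31.97, 28.8 and 27.6 in KO. Its log2 relative abundance stood at -5.69, -6.01 and -6.06 in WT against -9.13, -8.56 and -8.27 in KO. The groups were well apart beside the SD of 0.20 in WT and 0.44 in KO, and KO replicate 1 was again the lowest. The log2 difference was -2.73 ± 0.50 (SE, n = 3 per group; limma, adjusted p = 0.0311), with a 95% interval from 2.91-fold to 15.1-fold lower.

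miR-148a, the member outside the Copz genes, was read at Ct 26.3, 26.2 and 24.9 in WT against 29.98, 27.6 and 26.4 in KO. Its log2 relative abundance stood at -5.19, -5.62 and -5.80 in WT against -7.14, -7.31 and -7.11 in KO. Here the KO samples were nearly equal (SD 0.11), and KO replicate 1 did not stand apart from the other two. The log2 difference was -1.65 ± 0.48 (SE, n = 3 per group; limma, adjusted p = 0.0381), and its 95% interval ran from 1.43-fold to 6.86-fold lower. Levels of different members cannot be ranked from these values, because Ct also holds the efficiency of each assay.

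**Figure D1:**
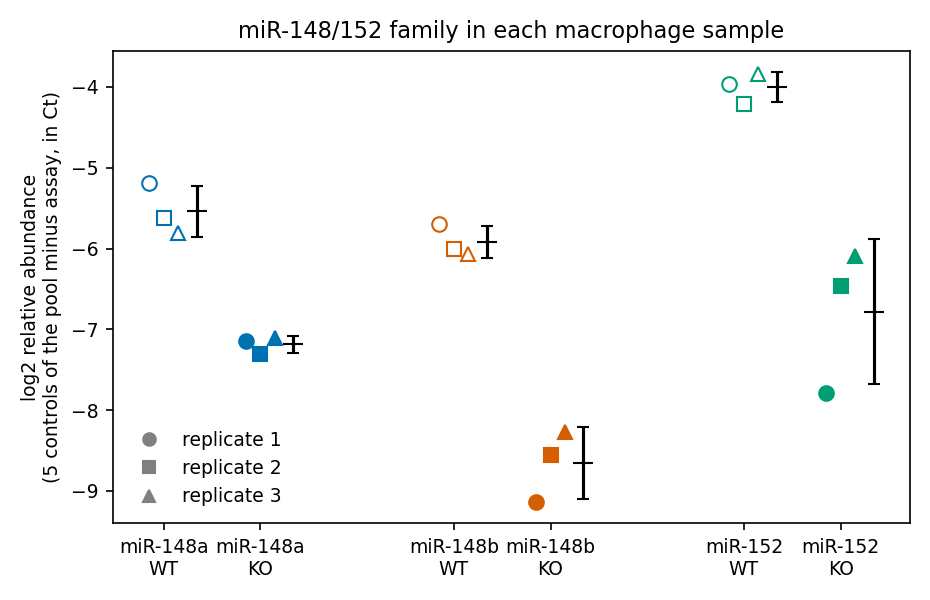
Log2 relative abundance (mean Ct of 5 controls minus Ct of the assay) of miR-148a, miR-148b and miR-152 in each sample; open symbols are WT, filled symbols KO, the symbol shape gives the replicate number, and bars show the mean ± SD of 3 samples. All KO samples lie below all WT samples for each member, and the KO samples of miR-148a are closest together (SD 0.11).

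Values from the authors' processing were near these. In the authors' deposited table the fold of KO over WT was 0.329 for miR-148a, 0.160 for miR-148b and 0.167 for miR-152. The authors' deposited relative quantities use 3 of the controls (U6, snoRNA135 and snoRNA202), and on their log2 scale the differences were -1.58, -2.66 and -2.71, with adjusted p values of 0.044, 0.0346 and 0.0368 (limma).

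The calls depended on having all WT samples, as did most calls in this table. Without WT replicate 1 the adjusted p values of miR-148a, miR-148b and miR-152 were 0.122, 0.111 and 0.111, without WT replicate 2 they were 0.136, 0.109 and 0.109, and without WT replicate 3 they were 0.0897, 0.0733 and 0.0733. Without KO replicate 2 they were 0.0891, 0.056 and 0.056, so that in each of these 4 cases 0 members passed in limma after adjustment and 3 did at an unadjusted p under 0.05. Without KO replicate 3 miR-148a did not pass (0.0577), while miR-148b and miR-152 did (both 0.0339). Without KO replicate 1, the sample with the latest controls, all 3 passed, with log2 differences of -1.67 for miR-148a, -2.49 for miR-148b and -2.27 for miR-152. The number of assays lower in KO in the whole table was 2, 2, 2 and 3 without WT replicate 1, 2, 3 or KO replicate 2, and 101 and 112 without KO replicate 1 or 3.

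The mean change of miR-148a was the smallest of the 3. All 3 assays belong to the same block, so the difference between 2 members within a sample does not depend on the controls. It is free of the amount of RNA only if the assays amplify with equal efficiency, which was not tested. Within each group, each of the 3 differences was lower the later the mean control Ct of the sample, and the part of this in the result was not tested. On the log2 scale miR-148b minus miR-148a was at -0.50, -0.39 and -0.26 in WT against -1.99, -1.25 and -1.16 in KO, and the groups did not overlap. The ratio of miR-148b to miR-148a was thus lower in KO by 1.08 on the log2 scale (exact permutation p = 0.1, two-sided, the smallest that 3 against 3 samples allow; adjusted p = 0.15 over the 3 pairs of members). It was lower in KO in each of the 3 same-number pairs, with differences of -1.49, -0.86 and -0.90.

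For miR-152 minus miR-148a the values were 1.23, 1.41 and 1.96 in WT against -0.65, 0.84 and 1.02 in KO. These groups did not overlap either, and the mean difference was -1.13 (exact permutation p = 0.1, adjusted p = 0.15), or -0.60 without KO replicate 1 (exact permutation p = 0.2). Without WT replicate 1, 2 or 3 it was -1.28, -1.19 and -0.92 (exact permutation p = 0.2, 0.2 and 0.3). Without KO replicate 2 or 3 the exact permutation p stayed at 0.1. For miR-152 minus miR-148b the values were 1.73, 1.80 and 2.22 in WT against 1.34, 2.09 and 2.18 in KO. The groups overlapped, the mean difference was -0.04 (exact permutation p = 0.8, adjusted p = 0.8), and the same-number pairs differed by -0.39, 0.30 and -0.04. It was 0.22 without KO replicate 1 (exact permutation p = 0.4) and 0.11 without WT replicate 3 (exact permutation p = 1). For this test 0.1 is the lowest possible p, and the p of 0.8 does not show that miR-152 and miR-148b changed alike.

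**Figure D2:**
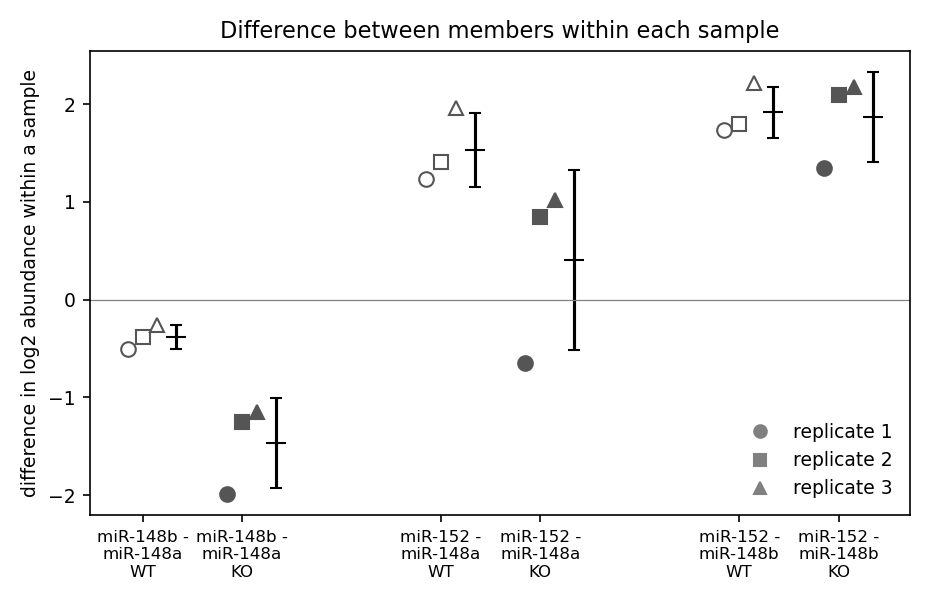
Difference in log2 relative abundance between 2 members within each sample, for the 3 pairs of members; open symbols are WT, filled symbols KO, shapes give the replicate number, and bars show the mean ± SD of 3 samples. Both differences that involve miR-148a are lower in every KO sample than in every WT sample, while miR-152 minus miR-148b overlaps between the groups.

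The KO samples did not rank alike for all members. Set against the WT mean, miR-152 was 13.8-fold lower in KO replicate 1, 5.51-fold in replicate 2 and 4.23-fold in replicate 3. miR-148b was 9.27-fold, 6.22-fold and 5.08-fold lower in the same samples. The median of the 282 tested assays followed that order, at 4.90-fold, 3.13-fold and 2.68-fold lower. For miR-148a the values were 3.04-fold, 3.41-fold and 2.97-fold, a range of 0.20 on the log2 scale beside 0.87 for the median assay, 0.87 for miR-148b and 1.70 for miR-152. An SD over KO samples below that of miR-148a was found for 3 of the 282 tested assays, whose median SD was 0.98. The 282 include assays with KO values set at the ceiling. For the 201 assays below the ceiling in all 6 samples the median SD was 0.83, and again 3 had a smaller SD than miR-148a. KO replicate 1, where the members differed most, was also the sample with the latest controls and the fewest detected miRNAs, and the part of this in the result was not tested.

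**Figure D3:**
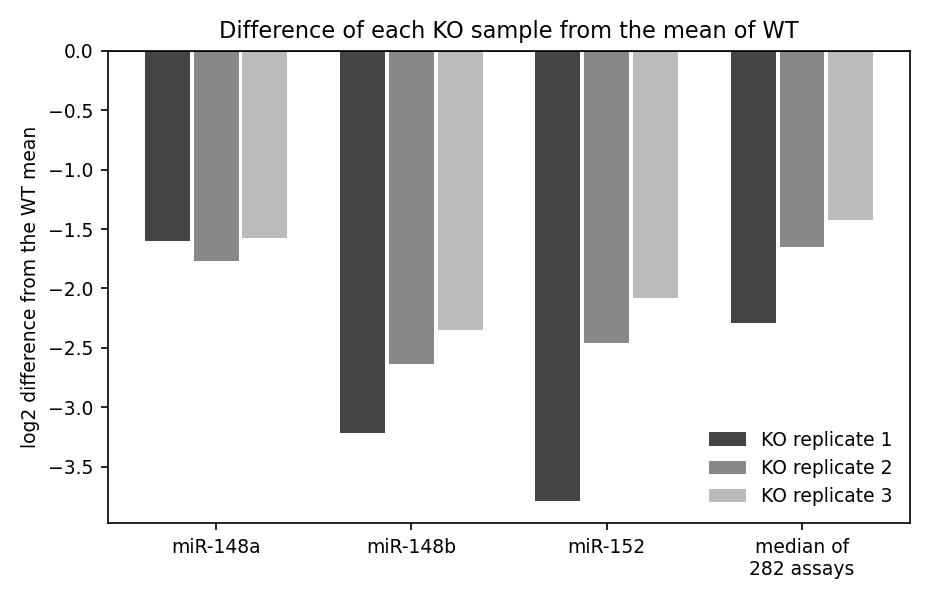
Log2 difference of each KO sample from the mean of the 3 WT samples, for each member and for the median of the 282 tested assays; bars start at 0 and shades give the KO replicate. miR-148b, miR-152 and the median assay are lowest in KO replicate 1, while the bars of miR-148a span 0.20.

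Among all tested assays the family stood on both sides of the middle. The median difference over the 282 was -1.91 on the log2 scale; miR-152 and miR-148b lay below it and miR-148a, at -1.65, above it. There were 53 tested assays with a lower difference than miR-152, 55 than miR-148b and 167 than miR-148a. The WT samples agreed better than for most assays: the SD over WT was larger than that of miR-148a in 74.8% of the tested assays, than that of miR-148b in 87.6% and than that of miR-152 in 89.7%. The median SD over WT was 0.57 for the 282 tested assays and 0.50 for the 201 below the ceiling in all 6 samples. When the mean of the detected miRNAs was the reference in place of the controls, which removes a change common to all miRNAs, the differences were -0.84 for miR-148b (adjusted p = 0.319), -0.89 for miR-152 (adjusted p = 0.354) and 0.24 for miR-148a (adjusted p = 0.839). With that reference the direction of miR-148a turned, and no member passed in limma, beside 2 lower assays in the whole table (at an unadjusted p the members gave 0.0594, 0.084 and 0.618).

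**Figure D4:**
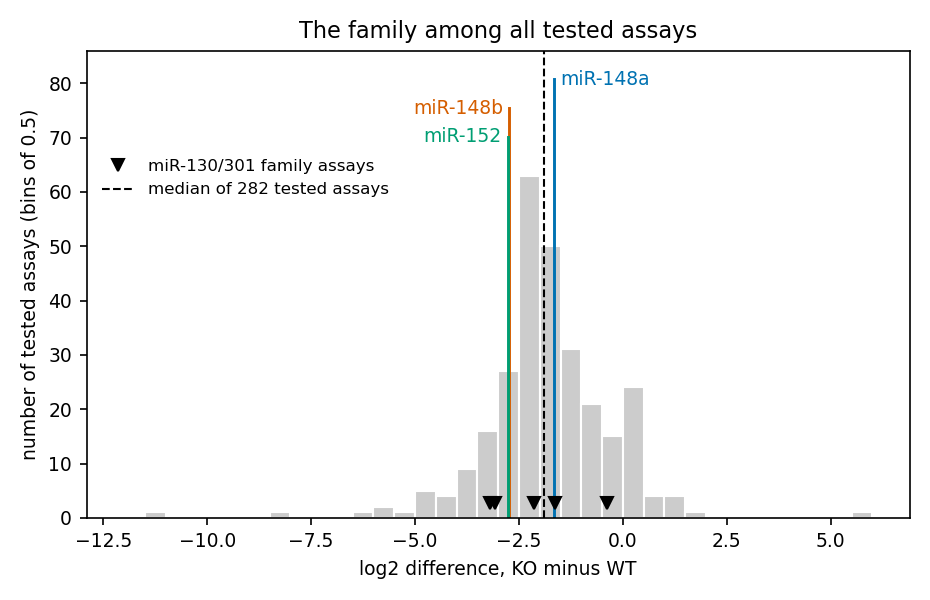
Number of tested assays by log2 difference of KO minus WT, in bins of 0.5, with the 3 members as coloured lines, the miR-130 and miR-301 family assays as triangles and the median of the 282 assays as a dashed line. miR-148b and miR-152 lie below the median of -1.91 and miR-148a above it.

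The miR-130 and miR-301 family is set beside these members because it carries the same 7 bases shifted by 1 position, at bases 1 to 7 in place of 2 to 8. Its seed is therefore another one, as the RefSeq sequences of 4 assayed members show with the seed in capitals.
miR-130a: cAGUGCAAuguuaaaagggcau
miR-130b: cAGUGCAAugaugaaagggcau
miR-301a: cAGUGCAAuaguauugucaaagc
miR-721: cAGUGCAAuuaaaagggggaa
Of the 5 tested assays of that family, with miR-301b as the fifth, 3 fell and 2 did not pass, with a median of -2.13, beside 37.2% lower and a median of -1.91 over all tested assays. All of them but miR-721 were below the ceiling in all 6 samples, and when the test was limited to such assays 114 of 201 were lower. miR-301b fell 9.22-fold (log2 -3.20 ± 0.50, SE; limma, adjusted p = 0.0267), miR-301a 8.42-fold (adjusted p = 0.0285) and miR-130b 4.38-fold (adjusted p = 0.0312). miR-130a was at -1.64 ± 0.89 (adjusted p = 0.163), with WT values that ranged from -4.62 to -7.94, and miR-721, near the ceiling with 1 KO sample below it, was at -0.38 or lower (adjusted p = 0.754). As for miR-148 and miR-152, without any 1 WT sample or KO replicate 2 the number that passed was 0 (3 or 4 at an unadjusted p under 0.05, limma). Without WT replicate 1 miR-130a was at -0.91 and without WT replicate 3 at -2.57, and miR-721 was at 0.05 without WT replicate 1, -0.90 without WT replicate 2, -1.05 without KO replicate 1 and 0.39 without KO replicate 3.

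The miR-29 family, which also represses DNA methyltransferases, had 2 of its 3 tested members lower in KO, with a median of -2.05, again beside 37.2% and -1.91 over all tested assays. miR-29b fell 5.14-fold (limma, adjusted p = 0.034) and miR-29a 4.14-fold (adjusted p = 0.0471), while miR-29c was at -1.71 (adjusted p = 0.0521). Without KO replicate 1 this count was 3, without KO replicate 3 it was 1, and it was 0 without any 1 WT sample or KO replicate 2 (1 to 3 at an unadjusted p under 0.05). Of 13 assays of miRNAs linked to cholesterol and lipid handling 8 were tested and 7 fell, and the median was -2.16, where 37.2% of all tested assays were lower and their median was -1.91. The miR-29 assays and all tested lipid assays but miR-10b were below the ceiling in all 6 samples. When the test was limited to such assays 114 of 201 were lower. The 7 that fell included miR-10b of the first block, at least 15.0-fold lower since 1 of 3 KO samples lay at the ceiling (log2 -3.91, adjusted p = 0.0311). It was at -4.58 without KO replicate 1, -5.57 with the Ct values as deposited and -1.59 with a ceiling at Ct 32 (adjusted p = 0.18). Others that fell were miR-106b, which targets ABCA1 (4.50-fold lower, adjusted p = 0.0312), and the myeloid miR-223 (3.75-fold lower, adjusted p = 0.0445), while miR-26a was at -2.27 (adjusted p = 0.0562). Of this list 6 passed without KO replicate 1, 7 without KO replicate 3 and 0 without any 1 WT sample or KO replicate 2 (6 to 8 at an unadjusted p under 0.05, limma). miR-26a was at -1.48 without KO replicate 1 and passed without KO replicate 3 (adjusted p = 0.0363). miR-223 did not pass whichever sample was left out (limma, adjusted p from 0.0605 to 0.157). With the authors' deposited relative quantities it did not pass either (adjusted p = 0.0514).

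The assays most like each member in pattern were found by the root mean square distance between log2 relative abundances over the 6 samples, each centred on its own mean. Nearest to miR-148a were miR-142-3p (distance 0.19), miR-27a (0.23) and miR-15b (0.26). Nearest to miR-148b was let-7g* (0.16), but its value in KO replicate 1 was set by the ceiling, so this distance is not exact. Next came miR-340-5p (0.18) and miR-331-3p (0.18), both measured in all samples. Nearest to miR-152 were miR-331-3p (0.16), miR-744 (0.20) and miR-340-3p (0.20). The distance was 0.31 between miR-148b and miR-152, 0.61 between miR-148a and miR-148b and 0.80 between miR-148a and miR-152. Like miR-148a, its neighbour miR-27a had KO samples close together, at -3.60, -3.70 and -3.64. These distances rest on the same 6 samples as the comparison of genotypes and are given as a description.

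Markers of other cells that a marrow culture can hold were also measured. Of the stromal and endothelial miRNAs, 6 of 7 were tested and 0 passed in limma (0 at an unadjusted p under 0.05), and their summed level was 0.0126 to 0.624 in WT, lowest in WT replicate 3, and 0.0492 to 0.105 in KO. Of the 4 lymphocyte miRNAs 3 fell (miR-181a, miR-181c and miR-342-3p), beside 37.2% of all tested assays, and miR-150 was at -1.19 (adjusted p = 0.326). All 4 were below the ceiling in all 6 samples, and when the test was limited to such assays 114 of 201 were lower. The summed level of the 4, of which miR-342-3p made up 49.0% to 94.1% in each sample, was 0.988 to 1.42 in WT and 0.0703 to 0.507 in KO. Of the 2 erythroid assays, miR-486 was at Ct 40 in all samples and miR-451 was below the ceiling in 1 WT and 2 KO samples. The part of these cells in the change of the miR-148 and miR-152 family was not tested. All 3 members kept their direction without WT replicate 3, but leaving out that sample is no test of it. The stromal and endothelial sums of WT replicates 1 and 2, 0.624 and 0.419, both lay above those of every KO sample.

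**Figure D5:**
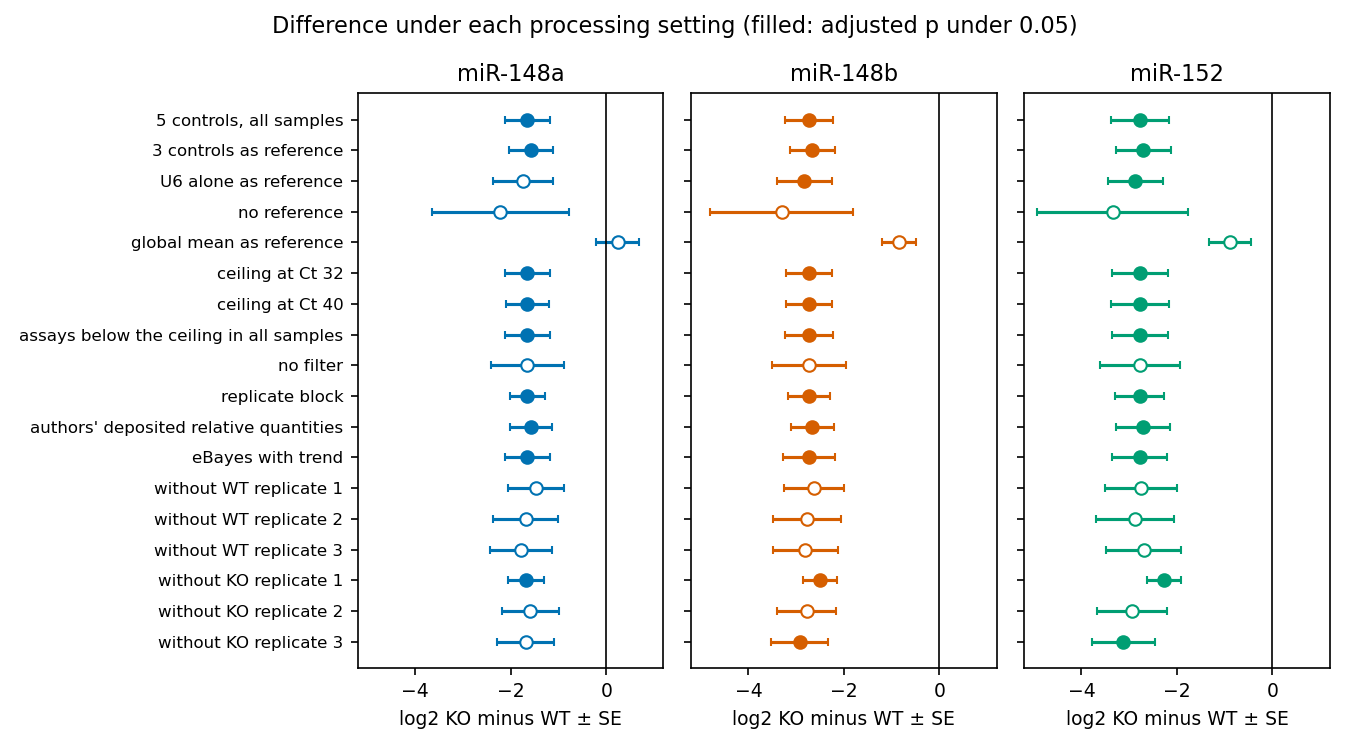
Log2 difference of KO minus WT ± SE for each member under each processing setting; filled circles have a limma adjusted p under 0.05 over all assays tested in that setting. The difference is negative in each setting except for miR-148a with the global mean as reference (0.24).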

How the data were processed

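MicroRNAs were measured in 3 WT and 3 KO samples from separate mice. Per the labels' protocols, the mirVana kit gave total RNA, and cDNA from the TaqMan MicroRNA kit was preamplified; instrument and Ct software are not stated. The authors deposited Ct scores (wells without amplification at 40), relative quantities, each a ratio to WT, and a fold (ratio) of KO over WT. From their values, 3380 of 3576 deposited ratios, and all 18 of the family, equal the Ct-derived ratio with 3 controls within 0.01 on the log2 scale.

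Ct values above 35 were set to 35. An assay was tested if below 35 in all samples of 1 group (282 of 596 assays). Minus the Ct relative to the 5 controls of the block was fitted on all tested assays with limma 3.58.1 in R 4.3.3 (genotype alone, two-sided, Benjamini-Hochberg, threshold 0.05). The fit was tested on simulated data with noise drawn independently for each assay. That simulation cannot show the effect of shifts shared by the assays of a sample. Exact permutation tests of the differences between members used R. Those of the controls and of each member, and the figures, used Python 3.11.15 (scipy 1.17.1, matplotlib 3.10.9). The number of samples limits the precision.

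Same-number samples of the groups deviated together (correlations of 0.23, 0.28 and 0.27 over 282 assays), so from the data the numbers were taken to pair them. The alternatives were other references, ceilings and filters, the replicate block, a trended fit, the deposited quantities and leaving out each sample. The members and lists were chosen with earlier results of these data known. Named were the members, the miR-130 and miR-301 family, the miR-29 family, the 2 smallest and 2 largest p of the lipid list, the 3 assays nearest in pattern to each member, and the markers.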

Additional observations from a re-analysis of the deposited data

How the results depend on the processing

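Each member had 17 alternatives, and the difference stayed negative in all of them for miR-148b (-3.30 to -0.84) and miR-152 (-3.35 to -0.89) and in 16 for miR-148a. With the global mean as reference miR-148a was at 0.24, miR-148b at -0.84 and miR-152 at -0.89. With no reference they were at -2.22, -3.30 and -3.35 and did not pass (adjusted p = 0.278, 0.256 and 0.256). With no filter 596 assays were tested, many without amplification, and the members, at -1.65, -2.73 and -2.78, did not pass (adjusted p = 0.257, 0.167 and 0.167). With U6 alone miR-148a was at -1.74 (adjusted p = 0.0535). Leaving out 1 sample gave -1.78 to -1.48 for miR-148a, -2.92 to -2.49 for miR-148b and -3.12 to -2.27 for miR-152; the calls without each sample stand in the report. The replicate block changed no call of a member (adjusted p = 0.0431, 0.042 and 0.042), and in the 3 pairs the differences between members gave exact sign-flip p values of 0.25, 0.25 and 0.75, where 0.25 is the smallest possible. Leaving out 1 sample moved these differences to -1.24 to -0.82 (miR-148b minus miR-148a), -1.44 to -0.60 (miR-152 minus miR-148a) and -0.20 to 0.22 (miR-152 minus miR-148b, positive at 0.11 without WT replicate 3 and 0.22 without KO replicate 1). The number of assays lower in KO, 105, was 2 with no reference, 2 with the global mean, 2 with no filter, and 2 to 112 without 1 sample. The median over tested assays was -0.20 with the global mean and 0.27 with no filter, and -2.06 to -1.49 without 1 sample. Other assays that turned positive were miR-130a (0.24), miR-15b (0.36), miR-27a (0.079), miR-29c (0.18) and miR-721 (0.26) with the global mean, and miR-721 without WT replicate 1 (0.05) or KO replicate 3 (0.39), which ranged from -1.05 to 0.39 without 1 sample. The cause of these changes was not tested. The counts per list without 1 sample or with the block were chosen after seeing the data, and the block left them as they were.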
